A study of Mus musculus with 15 samples.

Results

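Livers of Stab1-/- and wildtype mice were compared at the embryonic stage E17.5, in 7 of the 15 RNA-seq libraries of the series. The comparison was chosen by the columns of the count table that carry the fetal labels, with 3 Stab1-/- and 4 wildtype libraries. Stab1 encodes Clever-1, also called stabilin-1, and the Stab1-/- mice carry the knock-out in all cells. Every library comes from whole liver of the mixed background C57BL/6N;129SvJ, no treatment is given, and the other 8 libraries are from 2-week-old mice of the same genotypes. The labels say neither whether a library is 1 fetus or a pool of fetuses nor whether the genotypes are littermates, so the p-values measure the spread between these libraries.

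Clever-1 is a scavenger receptor of sinusoidal endothelium and of some macrophages, which takes up modified proteins and lipoproteins and sorts cargo to the endosome. At this stage of gestation the liver is both a metabolic organ and a main site of blood formation, so erythroid, myeloid and lymphoid precursors lie among the hepatocytes. Serpins are secreted inhibitors of serine proteases, many of which are made by hepatocytes, and those of the Serpina3 family are known as acute-phase products.

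Between 10450000 and 10960000 reads, rounded to the nearest 10000, were counted on genes in each of the 7 libraries, and 16229 to 16951 of 19464 table rows had at least 1 read. Levels are given as RPKM, reads scaled to the length of the gene model and to the size of the library, as the authors deposited them. Genotypes were compared by edgeR's quasi-likelihood test on the read counts with Benjamini-Hochberg adjustment over the 13388 genes that passed a filter on low counts, and a gene with an adjusted p under 0.05 is said to be called. Alb, the serum albumin gene that defines hepatocytes, was at 47187, 50992 and 44391 RPKM in the Stab1-/- and 43223, 41553, 43599 and 40317 RPKM in the wildtype livers. Each Stab1-/- value lay above each wildtype value, and Alb was not called.

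Transcripts of other organs were present in single libraries, so these were examined before the genotypes. The summed level of 32 genes of intestinal epithelium was 963, 186 and 213 RPKM in the Stab1-/- libraries and 164, 265, 184 and 144 RPKM in the wildtype libraries. Stab1-/- replicate 1 was the high library, and 13 genes of visceral smooth muscle were also highest there, at 309, 71.1 and 78.5 RPKM in the Stab1-/- libraries against 72.8, 61, 78.7 and 76.9 RPKM. Apoa4, an apolipoprotein of enterocytes, had 163, 0.803 and 0.963 RPKM in the Stab1-/- libraries and at most 3.20 RPKM in wildtype. Cdx2, which defines intestinal epithelium, was at 11.2, 0.0446 and 0.836 RPKM in the Stab1-/- libraries, and it was at 0 in wildtype replicates 1 and 3 and at 0.045 and 0.044 RPKM in the other two. Guca2a, a peptide of intestinal goblet and absorptive cells, read 59.9, 0 and 3.2 RPKM in the Stab1-/- libraries and 0 in all 4 wildtype libraries, which also places a trace of gut transcripts in Stab1-/- replicate 3.

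Pancreatic transcripts were highest in a wildtype library. The summed level of 32 genes of pancreatic acinar and islet cells was 299.7, 254 and 466 RPKM in the Stab1-/- and 627, 5422, 729 and 285 RPKM in the wildtype libraries, with wildtype replicate 2 far above the others. Ctrb1, a digestive protease precursor, was at 0.214, 0.323 and 43.9 RPKM in the Stab1-/- and 48.1, 1719.9, 166 and 0.211 RPKM in the wildtype libraries, so that 4 libraries held it above 40 RPKM and 3 held it under 0.4 RPKM. Wildtype replicate 1 stood apart for 13 genes of skeletal muscle, with a sum of 149 RPKM against 8.73 to 20.1 RPKM in the other 6 libraries. Of the lists for these organs edgeR called no member, although 9 of 12 tested intestinal and 6 of 11 tested smooth muscle genes were higher and 13 of 15 tested pancreatic genes lower at an unadjusted p under 0.05, and DESeq2 called 2, 1 and none of them. Of 2 tested stomach, 3 skeletal muscle and 2 kidney and adrenal genes, neither tool called any, and 1 stomach gene had an unadjusted p under 0.05 with all 7 libraries. Without Stab1-/- replicate 1 the counts were 3 intestinal, 3 smooth muscle and 6 pancreatic genes, and without wildtype replicate 2 or without Stab1-/- replicate 2 there was 1 pancreatic gene. The genotypes were therefore also compared without both libraries, Stab1-/- replicate 1 and wildtype replicate 2. These are meant below by both libraries with gut or pancreas transcripts. The fit without them was not free of other organs, since wildtype replicates 1 and 3 and Stab1-/- replicate 3 remained, with Ctrb1 at 48.1, 166 and 43.9 RPKM. The tested pancreatic genes still had a median log2 fold change of -1.44 in it.

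**Figure D1:**
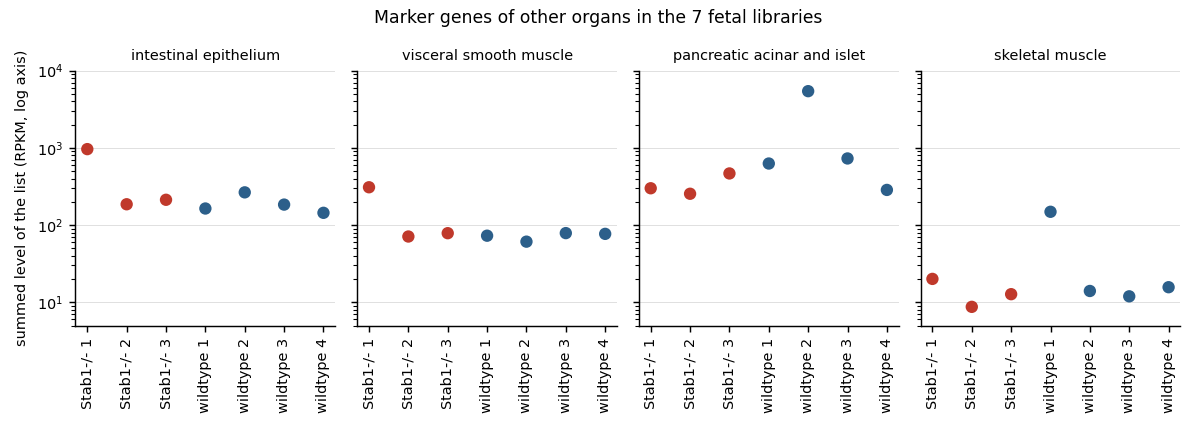
Summed RPKM of the marker genes of 4 other tissues (log axis) in each of the 7 fetal libraries, 1 point per library, red for Stab1-/- and blue for wildtype. Intestinal and smooth muscle sums are highest in Stab1-/- replicate 1 (963 and 309 RPKM), the pancreatic sum in wildtype replicate 2 (5422 RPKM) and the skeletal muscle sum in wildtype replicate 1 (149 RPKM).

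The Xist RNA of the inactive X chromosome and Y-linked transcripts also set libraries apart. Stab1-/- replicate 3 had Xist at 118 RPKM with Ddx3y, a Y-linked helicase gene, at 0.142 RPKM, and wildtype replicate 4 had Xist at 0.621 RPKM with Ddx3y at 28.2 RPKM. The other 5 libraries held both, with Xist from 21.7 to 73.5 RPKM and Ddx3y from 7.12 to 21.4 RPKM. Those 5 libraries thus held RNA of both sexes, and how that arose was not tested. Sample sizes count libraries throughout, and a liver given with a value stands for 1 library. No tested gene of the sex chromosomes was called, of 444 on X and 5 on Y.

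The RNA of the targeted gene was reduced but not lost, and protein was not measured in these libraries. According to the paper, the Stab1-/- mice have no Clever-1 protein in any cell. Stab1 had 361, 301 and 443 reads in the 3 Stab1-/- libraries and 1337, 1244, 1448 and 1868 reads in the 4 wildtype libraries, and every Stab1-/- library lay below every wildtype library. Its level was 4.37 ± 0.817 RPKM (SD, n = 3) in Stab1-/- and 17.2 ± 3.17 RPKM (SD, n = 4) in wildtype livers, so 25.4% of the wildtype level remained (log2 fold change -1.91, standard error 0.15, adjusted p = 0.00101). The exact permutation test of the RPKM values gave p = 0.0571, the smallest 2-sided value that 3 against 4 libraries allow. The share of the gene model covered by reads was 82.5%, 79.3% and 86.0% in the Stab1-/- and 98.1% to 98.5% in the wildtype libraries, so the remaining reads were spread over much of the gene. Stab2, which encodes the related receptor stabilin-2, was at 16.6, 12.6 and 15.2 RPKM in the Stab1-/- and 10.9, 11.9, 12.4 and 15.1 RPKM in the wildtype livers, and these overlapped (adjusted p = 0.331). Actb, a cytoskeletal reference gene, was at 499 ± 85.2 RPKM (SD, n = 3) and 451 ± 50.8 RPKM (SD, n = 4) in the 2 genotypes (exact permutation p = 0.4).

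Across all genes, 26 were higher and 23 were lower in Stab1-/- livers, which is 0.194% and 0.172% of the 13388 tested and 0.366% in both directions. The median log2 fold change over all tested genes was 0.0013. In each of the 49 called genes the 3 Stab1-/- and the 4 wildtype libraries did not overlap after TMM scaling, edgeR's correction for library composition. Without overlap were 6.1% of all tested genes in the higher and 5.19% in the lower direction, and an unadjusted p under 0.05 was reached by 6.95% and 5.95%. The called genes ran from log2 fold changes of 0.49 for Samd8 upwards and of -0.74 for Pnpla3 downwards. At the threshold, E130309D14Rik was called at an adjusted p of 0.0499 and Hsd17b13 was not, at 0.0525.

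Fewer calls remained when libraries were left out. A total of 21 genes, 11 higher and 10 lower, were called in each of the 7 fits with 1 library left out. These were Ifi202b, H60a, Serpina3h, Serpina3n, Gm9855, Gm3002, Prune2, Cyp2b9, Thrb, Acox2 and Clmn among the higher genes, and Stab1, Gda, Dusp12, Ddhd1, Fam129a, Gcnt1, Tmem180, 2010015L04Rik, Hesx1 and Ear6 among the lower ones. The number of calls lost was 16 without Stab1-/- replicate 1, 22 without Stab1-/- replicate 2, 21 without Stab1-/- replicate 3, 21 without wildtype replicate 1, 23 without wildtype replicate 2, 15 without wildtype replicate 3 and 12 without wildtype replicate 4. Of these losses, 1 each without wildtype replicates 1, 2 and 4 was C730036E19Rik, which then no longer passed the filter on low counts. Without Stab1-/- replicate 1 and wildtype replicate 2, which held most of the gut and pancreas transcripts, 31 of 13443 genes were called (0.231%), and 26 of these were among the 49. The 23 calls that ended were Sardh, Clmn, Erbb3, Samd8, Nr5a2, Rbm47, Serpina3f, Rrp12, Irs2, 9130409I23Rik and Tnnc1 among the higher genes, and Pnp, Postn, Gda, Cd99, Pyhin1, D030056L22Rik, Pnpla3, Sp140, Rpl26, Syt15, E130309D14Rik and C730036E19Rik among the lower ones. Their adjusted p-values in that fit ran from 0.0554 for Gda and Serpina3f to 0.217 for Rbm47, and Clmn, which no single library ended, was at 0.0873. None of the called genes changed direction in any of the 15 other fits that tested it. For the genes below, a call that was lost is named with each library whose absence alone ended it, and with the highest adjusted p over the 7 smaller fits, or over those in which the gene was tested.

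**Figure D2:**
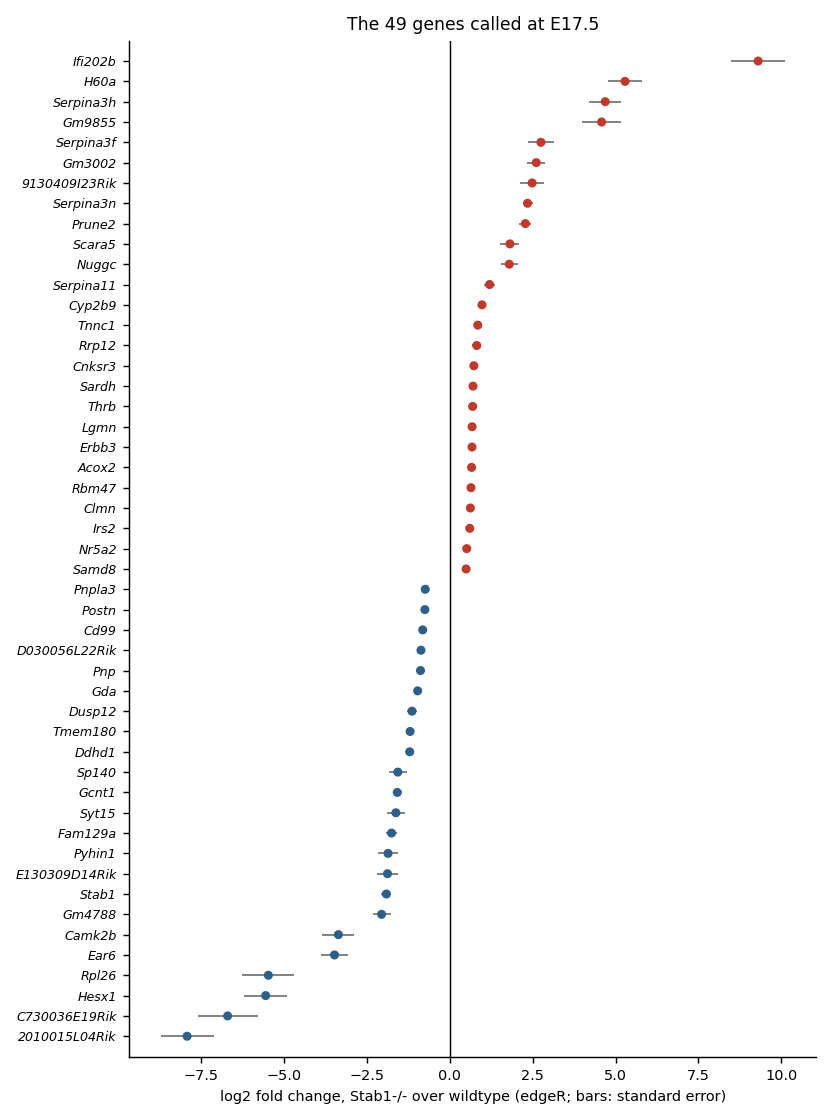
log2 fold change of Stab1-/- over wildtype (horizontal axis) for the 49 called genes (vertical axis), with bars of 1 standard error from edgeR's fit, red for higher and blue for lower. The 26 higher genes reach from Samd8 at 0.49 to Ifi202b at a fitted 9.30 and the 23 lower genes from Pnpla3 at -0.74 to 2010015L04Rik at -7.93, where values for genes at or near 0 reads in 1 genotype depend on the fit and are no measured fold.

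The serpin cluster of chromosome 12 held 4 of the 26 higher genes. Serpina3n, an acute-phase protease inhibitor, had the smallest adjusted p of all genes and was at 112, 100.2 and 123 RPKM in the Stab1-/- and 23, 24.8, 26.7 and 16.9 RPKM in the wildtype livers. Its level was 112 ± 11.5 RPKM (SD, n = 3) in Stab1-/- and 22.9 ± 4.28 RPKM (SD, n = 4) in wildtype livers, 4.89 times higher (log2 fold change 2.34, standard error 0.15, adjusted p = 0.000336). The adjusted p was 0.00232 without both libraries that held most of the gut and pancreas transcripts. Serpina3h was nearly confined to the Stab1-/- libraries, with 1.81, 1.54 and 2.99 RPKM against 0.0906, 0.14, 0 and 0.0911 RPKM (log2 fold change 4.69, adjusted p = 0.00372). Serpina3f was at 3.25, 2.88 and 2.76 RPKM against 0.412, 0.467, 0.809 and 0.124 RPKM (log2 fold change 2.75, adjusted p = 0.0141), and its call was lost without Stab1-/- replicates 2 and 3 or wildtype replicates 1 and 2 (adjusted p up to 0.0736). Serpina11, a less studied serpin of the same cluster, was at 95, 116 and 97.3 RPKM against 54.1, 49.6, 49.8 and 33.4 RPKM (log2 fold change 1.20, adjusted p = 0.0133), a call lost without Stab1-/- replicate 2 or wildtype replicate 2 (adjusted p up to 0.0549). Members of the Serpina3 family are close copies of each other, and how the counting treated reads shared by copies is uncertain.

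The promoters of 3 called serpins are shown because these genes rose together and lie in 1 cluster. Each line gives the RefSeq sequence upstream of the annotated gene start on GRCm38.p6, 5′ to 3′ on the strand of the gene, with the letters TTCNNNGAA in capitals, a palindrome that is the general core bound by STAT factors.
Serpina3n (chr12:104406458-104406645, plus strand): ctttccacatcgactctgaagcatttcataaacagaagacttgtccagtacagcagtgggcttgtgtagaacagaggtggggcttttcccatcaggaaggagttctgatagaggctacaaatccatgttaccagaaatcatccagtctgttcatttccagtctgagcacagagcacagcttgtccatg
Serpina3f (chr12:104214294-104214543, plus strand): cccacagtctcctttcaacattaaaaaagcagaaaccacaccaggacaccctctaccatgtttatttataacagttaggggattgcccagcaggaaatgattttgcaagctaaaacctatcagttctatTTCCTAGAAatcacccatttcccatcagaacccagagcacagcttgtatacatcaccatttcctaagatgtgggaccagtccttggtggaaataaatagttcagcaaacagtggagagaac
Serpina11 (chr12:103989969-103990207, minus strand): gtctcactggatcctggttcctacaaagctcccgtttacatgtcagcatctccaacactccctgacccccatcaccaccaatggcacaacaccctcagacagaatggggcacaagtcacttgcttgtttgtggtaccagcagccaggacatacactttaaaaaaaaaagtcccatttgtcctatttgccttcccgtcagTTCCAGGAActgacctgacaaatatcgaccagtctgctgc
The letters occur 1 time each in the Serpina3f and Serpina11 windows and not in the Serpina3n window. The RefSeq windows hold the 250 bases before a transcript start, and bases past the annotated start of the gene are not shown, which leaves 188 bases for Serpina3n, 250 for Serpina3f and 239 for Serpina11. In the 250 bases before a transcript start, TTCNNNGAA was found in 3 of the 39 called genes with a sequence, which were Ifi202b, Serpina11 and Serpina3f, and in 2197 of all 27025 genes. The longest stretch that the Serpina3n and Serpina3f windows share is the 15 bases CAGAGCACAGCTTGT.

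Serpins that were not called gave differences in both directions. Of the 18 tested members of the list, edgeR called 4 higher, against 0.194% of all tested genes, and none lower, against 0.172%. DESeq2 called 5 higher and 1 lower. An unadjusted p under 0.05 was reached by 8 in the higher and 4 in the lower direction, against 6.95% and 5.95% of all. With 1 library left out these counts ranged from 7 to 8 and from 3 to 6. The median log2 fold change was 0.43 against 0.0013 over all genes, and 7 members were without overlap in the higher direction, against 6.1% of all, and 3 in the lower, against 5.19%. Serpina3c was at 0.9, 1.58 and 0.949 RPKM in the Stab1-/- and 0.385, 0.113, 0.324 and 0.277 RPKM in the wildtype livers (log2 fold change 2.09, adjusted p = 0.0824), and Serpina3b was at 0.826, 0.646 and 0.866 RPKM and 0.179, 0.462, 0.22 and 0.271 RPKM (log2 fold change 1.51, adjusted p = 0.136). Both gave lower values in wildtype, without reaching the threshold. Serpina1b, which like its neighbours encodes alpha-1-antitrypsin, was at 792, 976 and 607 RPKM against 1265, 1171, 1204 and 1195 RPKM (log2 fold change -0.55, adjusted p = 0.209). Serpina1e ranged widely, with 426, 834 and 47.9 RPKM in the Stab1-/- and 1238, 1135, 1353 and 821 RPKM in the wildtype livers (log2 fold change -1.31, adjusted p = 0.44), the lowest of all in Stab1-/- replicate 3. The Serpina1 genes are near-identical copies too. Serpina6, which encodes the corticosteroid-binding globulin, was at 494, 378 and 627 RPKM against 258, 257, 289 and 485 RPKM, and wildtype replicate 4 overlapped with the Stab1-/- livers (log2 fold change 0.70, adjusted p = 0.254).

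**Figure D3:**
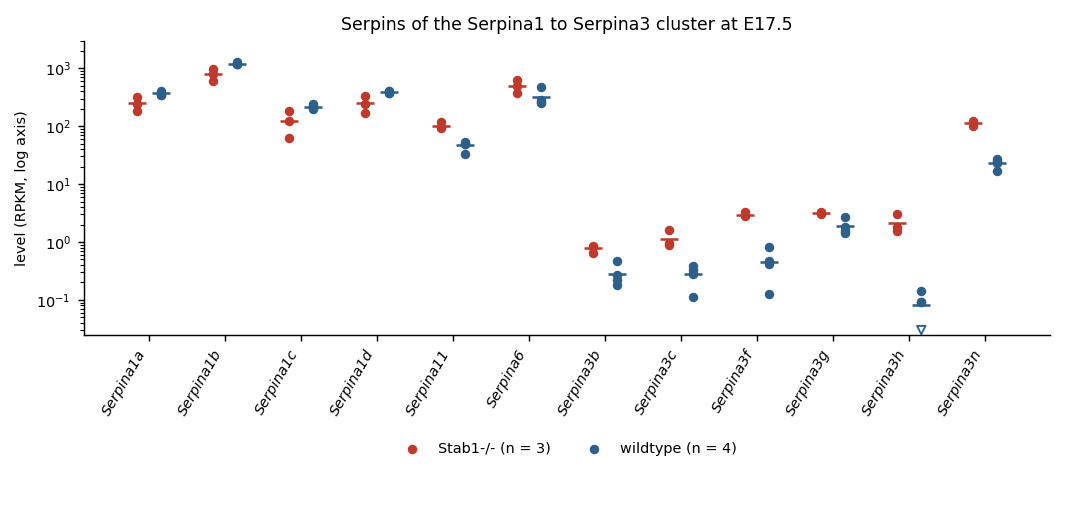
RPKM (log axis) of 12 serpins in each library, red points for the 3 Stab1-/- and blue points for the 4 wildtype livers, with lines at the group means and an open triangle at the bottom for a value of 0. Serpina3n, Serpina3f, Serpina3h and Serpina11 are higher in each Stab1-/- library, and Serpina1a, Serpina1b and Serpina1d lie lower without being called.

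Lgmn and Clmn, which lie on either side of the serpins, rose as well. Lgmn encodes legumain, an asparaginyl endopeptidase of lysosomes, and was at 93.9, 86.1 and 107 RPKM against 61, 62.1, 62.6 and 64.8 RPKM (log2 fold change 0.67, adjusted p = 0.00848), a call lost without wildtype replicate 1 (adjusted p up to 0.0503). Clmn, which encodes calmin, a membrane protein with an actin-binding domain, was at 3.3, 2.89 and 2.83 RPKM against 2.05, 1.99, 2.06 and 2.05 RPKM (log2 fold change 0.62, adjusted p = 0.0117). From Lgmn to Clmn, 6 of 34 tested genes were called, all higher, and from Serpina11 to Serpina3n 4 of 11, against 0.366% of all tested genes. Both intervals were drawn from one called gene to another after the calls were known, so their end genes are called by construction and the counts are a description.

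Ifi202b was read only in Stab1-/- livers. This member of the Ifi200 (PYHIN) family of interferon-inducible DNA-binding proteins had 46, 116 and 64 reads in the Stab1-/- libraries and none in any of the 4 wildtype libraries. With a floor of 3 reads in each wildtype library, its level was at least 25.6-fold higher (adjusted p = 0.00827). Pyhin1, another family member, fell and was at 0.408, 0.656 and 1.05 RPKM against 3.03, 3.39, 2.19 and 2.14 RPKM (log2 fold change -1.86, adjusted p = 0.0421), a call lost without Stab1-/- replicates 1 and 2 or wildtype replicates 1, 2, 3 and 4 (adjusted p up to 0.136). Of the 9 tested members of the family, these were the 2 called, against 0.366% of all tested genes. An unadjusted p under 0.05 was reached by 1 in the higher and 4 in the lower direction, against 6.95% and 5.95% of all. Without overlap were 1 in the higher and 2 in the lower direction, against 6.1% and 5.19%. Of the 9 members, 8 had negative log2 fold changes, with a median of -0.37. Ifi204, the member with the highest wildtype level, was at 2.52, 3.53 and 4.18 RPKM against 6.05, 7.11, 5.82 and 4.14 RPKM, and the groups overlapped (adjusted p = 0.248). The expression of Ifi202b is known to differ between inbred mouse strains, and strain alleles were not analysed here.

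Interferon-stimulated genes outside that family gave no call. Of 35 tested, none was called, none reached an unadjusted p under 0.05 and none was without overlap in either direction, whereas up to 3 higher and up to 4 lower genes reached that p with 1 library left out, the most without wildtype replicate 3 and wildtype replicate 4, and 2 higher genes without both libraries with gut or pancreas transcripts. The list had a median log2 fold change of -0.087. Rsad2, an antiviral enzyme, ranged from 16.3 RPKM in wildtype replicate 4 to 97.1 RPKM in wildtype replicate 2, so that the 3 Stab1-/- livers at 56, 94.1 and 81.9 RPKM lay within the wildtype range. DESeq2, the other tool run, called none of them either.

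H60a encodes a ligand of NKG2D, an activating receptor of natural killer cells. It had 27, 20 and 22 reads in the Stab1-/- libraries and 1, 0, 1 and 0 reads in the wildtype libraries. With 2 reads in wildtype in all, the ratio was 46.8 with an exact 95% counting interval of 12.5 to 394 (adjusted p = 0.00365). H60a too is known to differ between mouse strains. Of 14 tested NKG2D ligand and MHC genes, it was the 1 called, where 0.194% of all tested genes were called higher. The other 13 did not pass the test.

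Further called genes have known roles in blood cells. Ear6 encodes an eosinophil-associated ribonuclease and was at 0.773, 0.907 and 1.79 RPKM against 7.05, 13.4, 14.5 and 19.9 RPKM (log2 fold change -3.48, standard error 0.41, adjusted p = 0.00696). Its neighbours Ear1 and Ear2 are close copies that may share reads with it, and the 3 genes together had 122, 154 and 158 reads in the Stab1-/- and 254, 369, 377 and 500 reads in the wildtype libraries, 39.2% of wildtype relative to library size. That sum did not overlap between genotypes, and it was lowest in the Stab1-/- livers. Gcnt1, a glycosyltransferase that builds core 2 branches on mucin-type glycans of leukocytes, was at 5.1, 5.98 and 7.33 RPKM against 16.9, 20.7, 18 and 21.4 RPKM (log2 fold change -1.59, standard error 0.13, adjusted p = 0.00113). Sp140, a nuclear body protein of lymphoid and myeloid cells, was at 0.983, 0.672 and 0.937 RPKM against 3.73, 2.3, 2.57 and 2.09 RPKM (log2 fold change -1.57, adjusted p = 0.0474), a call lost without Stab1-/- replicates 1, 2 and 3 or wildtype replicates 1, 2 and 3 (adjusted p up to 0.117). Cd99, a surface protein used by leukocytes to cross endothelium, was at 20.8, 25.6 and 25.4 RPKM against 46.2, 49.9, 39.7 and 40.5 RPKM (log2 fold change -0.82, adjusted p = 0.0254), lost without Stab1-/- replicates 1, 2 and 3 or wildtype replicates 1 and 2 (adjusted p up to 0.0898). Nuggc, a nuclear GTPase known from germinal centre B cells, went the other way, at 0.888, 1.12 and 1.29 RPKM against 0.362, 0.335, 0.284 and 0.328 RPKM (log2 fold change 1.79, adjusted p = 0.0161), and was lost without Stab1-/- replicates 2 and 3 or wildtype replicates 1, 2, 3 and 4 (adjusted p up to 0.0962). In bulk liver, fewer cells of a type and less RNA per cell cannot be told apart.

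Among metabolic enzymes, Acox2, a peroxisomal oxidase of branched-chain fatty acids and bile acid intermediates, was higher in each Stab1-/- liver. It was at 83, 82.6 and 84.7 RPKM in the Stab1-/- and 57.5, 55.2, 55 and 53 RPKM in the wildtype livers, 1.51 times higher (log2 fold change 0.66, standard error 0.077, adjusted p = 0.00696). Sardh, the mitochondrial sarcosine dehydrogenase, was at 78.4, 71.5 and 64.3 RPKM against 43.5, 43.1, 50.2 and 46.7 RPKM (log2 fold change 0.70, adjusted p = 0.0126), a call lost without Stab1-/- replicate 2 or wildtype replicates 1 and 2 (adjusted p up to 0.0692). Cyp2b9, a steroid hydroxylase, was at 9.16, 9.93 and 11.2 RPKM against 5.44, 5.1, 4.71 and 6.22 RPKM (log2 fold change 0.97, adjusted p = 0.00952), and no single library ended its call. Samd8, a ceramide phosphoethanolamine synthase, was at 5.57, 5.49 and 5.43 RPKM against 4.14, 4.06, 3.73 and 4.39 RPKM (log2 fold change 0.49, adjusted p = 0.0437) and was not called in any fit with 1 library left out (adjusted p from 0.0568 to 0.136). Scara5, a receptor that takes up ferritin, was at 1.07, 1.23 and 1.19 RPKM against 0.366, 0.502, 0.311 and 0.196 RPKM (log2 fold change 1.81, adjusted p = 0.0293), lost without Stab1-/- replicates 2 and 3 or wildtype replicates 1 and 3 (adjusted p up to 0.109).

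The enzymes that fell included 2 of purine breakdown. Gda, guanine deaminase, was at 3.82, 4.18 and 3.55 RPKM against 8.92, 8.32, 7.07 and 7.21 RPKM (log2 fold change -0.97, standard error 0.12, adjusted p = 0.00934). Pnp, purine nucleoside phosphorylase, was at 16, 17.2 and 13.2 RPKM against 24.7, 27.5, 33.7 and 33.5 RPKM (log2 fold change -0.88, adjusted p = 0.0249), and its call was lost without Stab1-/- replicates 1 and 3 or wildtype replicates 2, 3 and 4 (adjusted p up to 0.0956). In both genes each Stab1-/- liver lay below each wildtype liver. Ddhd1, a phospholipase that prefers phosphatidic acid, was at 2.67, 2.43 and 3.12 RPKM against 5.43, 7.25, 5.95 and 7.84 RPKM (log2 fold change -1.21, adjusted p = 0.00689). Pnpla3, a lipid droplet protein, was at 2.11, 2.22 and 2.5 RPKM against 3.62, 4.67, 3.85 and 3.74 RPKM (log2 fold change -0.74, adjusted p = 0.0474), and no fit with 1 library left out called it (adjusted p from 0.0674 to 0.122).

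Nuclear receptors and signalling genes were also called. Thrb, the beta thyroid hormone receptor, was at 5.28, 4.92 and 5.51 RPKM against 3.56, 3.38, 3.25 and 3.35 RPKM (log2 fold change 0.69, standard error 0.083, adjusted p = 0.00827) and stayed called in each of the 7 smaller fits. Nr5a2, a nuclear receptor of hepatocyte and bile acid genes, was at 8.33, 7.84 and 8.95 RPKM against 5.87, 6.07, 5.74 and 6.86 RPKM (log2 fold change 0.51, adjusted p = 0.0484), a call lost without Stab1-/- replicates 1, 2 and 3 or wildtype replicates 1, 2 and 3 (adjusted p up to 0.207). Erbb3, a neuregulin receptor, was at 9.38, 8.11 and 9.64 RPKM against 5.71, 5.4, 6.38 and 6.21 RPKM (log2 fold change 0.67, adjusted p = 0.0133), lost without Stab1-/- replicate 3 or wildtype replicates 1 and 2 (adjusted p up to 0.0768). Irs2, the adaptor of the insulin receptor, was at 11.1, 11.3 and 11.5 RPKM against 7.57, 6.96, 9 and 7.59 RPKM (log2 fold change 0.60, adjusted p = 0.0474), lost without Stab1-/- replicates 1, 2 and 3 or wildtype replicates 1, 2 and 4 (adjusted p up to 0.162). Cnksr3, a scaffold of Ras signalling, was at 9.18, 9.84 and 9.79 RPKM against 6.63, 5.61, 5.56 and 6.48 RPKM (log2 fold change 0.72, adjusted p = 0.0126), lost without Stab1-/- replicates 2 and 3 or wildtype replicates 2 and 3 (adjusted p up to 0.0545). These 5 genes were all higher in the Stab1-/- livers. Dusp12, a dual-specificity phosphatase, was lower in the Stab1-/- livers at 7.4, 4.6 and 6.54 RPKM against 12.4, 15.8, 13.9 and 14.7 RPKM (log2 fold change -1.14, standard error 0.15, adjusted p = 0.011). Camk2b, a calcium and calmodulin kinase subunit, had 9, 1 and 2 reads against 32, 46, 47 and 54 reads (log2 fold change -3.36, adjusted p = 0.0161), lost without Stab1-/- replicates 2 and 3 or wildtype replicates 2 and 3 (adjusted p up to 0.0919).

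The remaining called genes with a known product had scattered roles. Rbm47, an RNA-binding protein, was at 11.4, 8.2 and 9.63 RPKM against 7.08, 6.34, 6.44 and 6.16 RPKM (log2 fold change 0.64, adjusted p = 0.0487), lost without Stab1-/- replicates 1 and 3 or wildtype replicates 1, 2, 3 and 4 (adjusted p up to 0.163). Rrp12, a ribosome export factor, was at 7.5, 6.34 and 5.43 RPKM against 4, 3.57, 4.22 and 3.44 RPKM (log2 fold change 0.81, adjusted p = 0.0293), lost without Stab1-/- replicates 1 and 2 or wildtype replicates 1, 2 and 4 (adjusted p up to 0.122). Prune2, a large cytoplasmic protein, was at 1.08, 0.84 and 0.799 RPKM against 0.148, 0.199, 0.19 and 0.239 RPKM (log2 fold change 2.28, standard error 0.18, adjusted p = 0.00101), and each Stab1-/- value was above each wildtype value. Tnnc1, the troponin C of slow and cardiac muscle, was at 73.1, 60.4 and 86.5 RPKM against 41.2, 42.9, 39.7 and 46.5 RPKM (log2 fold change 0.84, adjusted p = 0.0115), lost without wildtype replicates 1, 2 and 3 (adjusted p up to 0.0736). Skeletal muscle markers were highest in wildtype replicate 1, yet Tnnc1 was at 41.2 RPKM there, within the range of the other wildtype libraries.
Among the lower genes of this kind, Fam129a, known as Niban and induced by cellular stress, was at 3.27, 2.88 and 2.46 RPKM against 7.61, 9.41, 11.6 and 11.9 RPKM (log2 fold change -1.76, standard error 0.17, adjusted p = 0.00263). Postn, a matrix protein that binds integrins, was at 18, 13.1 and 17.2 RPKM against 29, 31.4, 28.5 and 24 RPKM (log2 fold change -0.75, adjusted p = 0.0421), lost without Stab1-/- replicates 1, 2 and 3 or wildtype replicates 1, 2 and 3 (adjusted p up to 0.136). Syt15, a synaptotagmin, was at 0.184, 0.264 and 0.39 RPKM against 0.82, 1.03, 0.881 and 0.902 RPKM (log2 fold change -1.63, adjusted p = 0.0492), and no fit with 1 library left out called it (adjusted p from 0.0621 to 0.16). Tmem180, a membrane protein, was at 3.5, 2.6 and 2.69 RPKM against 6.52, 7.18, 7.32 and 7.01 RPKM (log2 fold change -1.20, standard error 0.13, adjusted p = 0.00464). Hesx1, a homeobox repressor of forebrain and pituitary, had 1, 0 and 0 reads against 20, 28, 26 and 16 reads. With 1 read in the Stab1-/- libraries the ratio of wildtype to Stab1-/- was 66.3, with an exact 95% counting interval of 11.6 to 2647 (adjusted p = 0.00696).

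Several called gene models can share reads with another model, and their sums were examined. The gene 2010015L04Rik stands on 2 rows of the table. The tested row had 0 reads in every Stab1-/- library and 23, 44, 23 and 34 in wildtype, at least 10.2-fold lower with a floor of 3 reads per library (adjusted p = 0.00827). The other row had 9, 17 and 35 reads in Stab1-/- and 0 in every wildtype library. Both rows together had 9, 17 and 35 reads in the Stab1-/- and 23, 44, 23 and 34 in the wildtype libraries, and the genotypes overlapped. Reads of this gene thus stood on a different row in each genotype.
Gm9855, a predicted gene akin to the DNA glycosylase gene Tdg, had 31, 35 and 112 reads against 2, 4, 2 and 2 (log2 fold change 4.58, adjusted p = 0.00943), whereas Tdg had 125, 106 and 29 against 160, 145, 143 and 156. The library with most Gm9855 reads, Stab1-/- replicate 3, had fewest Tdg reads. Together they had 156, 141 and 141 against 162, 149, 145 and 158 reads, 96.8% of wildtype relative to library size.
Rpl26, a protein of the large ribosomal subunit, had 12, 9 and 32 reads against 1410, 1036, 168 and 713 (log2 fold change -5.47, adjusted p = 0.0161), a call lost without Stab1-/- replicates 1, 2 and 3 or wildtype replicate 2 (adjusted p up to 0.0698). Gm15772, a close copy of it, had 1091, 1036 and 1599 reads against 339, 945, 1177 and 722. Together they had 1103, 1045 and 1631 against 1749, 1981, 1345 and 1435 reads, 78.5% of wildtype, and Stab1-/- replicate 3 lay within the wildtype range. In these 3 cases the large fold changes were those of single models, and the difference was smaller or the genotypes overlapped once the models were added up.

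The other called genes have no well-known product. Gm3002 was at 4, 1.81 and 2.62 RPKM against 0.421, 0.506, 0.603 and 0.371 RPKM (log2 fold change 2.61, adjusted p = 0.00372) and was called in each of the 7 smaller fits. 9130409I23Rik was at 0.901, 0.906 and 0.845 RPKM against 0.0979, 0.252, 0.192 and 0.0985 RPKM (log2 fold change 2.48, adjusted p = 0.0205), lost without Stab1-/- replicates 1, 2 and 3 or wildtype replicates 1, 3 and 4 (adjusted p up to 0.0838). Both were higher in each Stab1-/- liver. Gm4788 was at 0.461, 0.596 and 0.457 RPKM against 1.67, 3.08, 2.12 and 1.97 RPKM (log2 fold change -2.06, adjusted p = 0.011), lost without Stab1-/- replicate 3 (adjusted p up to 0.0643). E130309D14Rik was at 3.51, 3.94 and 4.55 RPKM against 20.6, 14.3, 6.95 and 19.7 RPKM (log2 fold change -1.88, adjusted p = 0.0499), lost without Stab1-/- replicates 1, 2 and 3 or wildtype replicates 1, 2 and 4 (adjusted p up to 0.14). D030056L22Rik was at 10.8, 10.8 and 14.1 RPKM against 21.8, 24.9, 20.9 and 23.2 RPKM (log2 fold change -0.87, adjusted p = 0.011), lost without Stab1-/- replicate 2 (adjusted p up to 0.0542). These 3 were lower in each Stab1-/- liver. C730036E19Rik had no read in the Stab1-/- libraries and 12, 12, 9 and 20 in wildtype, at least 4.35-fold lower with the floor of 3 reads per library (adjusted p = 0.0292), and its call was lost without Stab1-/- replicates 1, 2 or 3 (adjusted p from 0.054 to 0.075). It was not tested without wildtype replicates 1, 2 or 4, where it did not pass the filter.

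The called genes were unevenly placed on the chromosomes. Chromosomes 1, 12, 14 and 19 held 34 of the 48 called genes that RefSeq places, 1.55% of their 2189 tested genes, and the other chromosomes held 14 of 11175, or 0.125%. These chromosomes were picked after the calls were known, as those with most calls, so the difference in share is a description. Chromosome 14, where Stab1 lies, held most with 13 of 457 tested genes, 7 higher and 6 lower. Of the 10 tested neighbours on either side of Stab1, only Tnnc1 was called, and 1 tested gene lies between them. Nuggc and Scara5, both higher, are adjacent among the tested genes of chromosome 14. On chromosome 19, 4 of the 13 tested genes from Prune2 to Gda were called, of which Prune2 was higher and Gcnt1, D030056L22Rik and Gda were lower. On chromosome 1, 4 of the 98 tested genes from Dusp12 to 9130409I23Rik were called, among them Pyhin1 and Ifi202b. The intervals on chromosomes 1, 14 and 19 were also drawn between called genes, and 0.366% of all tested genes were called. These counts were not tested, and whether flanking DNA of the targeted allele or the mixed strain background takes part was not tested either.

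The gene lists for cell types and pathways were then described by their members. Granulocyte and mast cell genes had negative log2 fold changes in 22 of 25 tested members, none of which edgeR called. DESeq2 called 5, all lower, which were S100a8, S100a9, Prg2, Prg3 and Ear2. Of the 25 members, 14 had an unadjusted p under 0.05 in the lower direction against 5.95% of all tested genes, none in the higher direction, and 9 were without overlap in the lower direction against 5.19% of all. With 1 library left out, 10 to 18 members had that p in the lower and 0 or 1 in the higher direction. The median log2 fold change was -0.33 against 0.0013 over all genes. S100a9 and S100a8 encode the 2 subunits of calprotectin, an abundant neutrophil protein. S100a9 was at 1504, 1587 and 1755 RPKM in the Stab1-/- and 3887, 3674, 2259 and 2529.9 RPKM in the wildtype livers (log2 fold change -0.88, adjusted p = 0.123), and S100a8 was at 1187, 1259 and 1371 RPKM and 3041, 2919, 1739.8 and 1887 RPKM (log2 fold change -0.86, adjusted p = 0.152). Each Stab1-/- liver was below each wildtype liver in both genes, and wildtype replicates 1 and 2 were the highest. Camp, an antimicrobial peptide of neutrophil granules, was at 280.2, 311 and 249 RPKM against 495, 454, 375 and 337 RPKM (log2 fold change -0.51, adjusted p = 0.228), and Ngp, another granule protein, at 387, 473 and 333 RPKM against 561, 484, 442 and 457 RPKM (log2 fold change -0.23, adjusted p = 0.531).
Ear6, the eosinophil-associated ribonuclease that was called lower, was not in the granulocyte and mast cell list. The following genes of eosinophil granules, named after their values were seen, were also lower in each Stab1-/- liver than in each wildtype liver, but were not called. Prg2, the major basic protein, was at 51.5, 59.1 and 58.9 RPKM against 74.7, 99.6, 105 and 121 RPKM (log2 fold change -0.76, adjusted p = 0.0678), Prg3 was at 3.1, 2.32 and 2.29 RPKM against 5.68, 6.65, 5.09 and 4.83 RPKM (log2 fold change -1.05, adjusted p = 0.0911), and Epx, eosinophil peroxidase, was at 1.91, 2.59 and 2.38 RPKM against 2.83, 3.48, 4.37 and 4.48 RPKM (log2 fold change -0.66, adjusted p = 0.224). Without both libraries with gut or pancreas transcripts the median of the list was -0.32, 11 members had an unadjusted p under 0.05 in the lower direction, and edgeR called none.

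**Figure D4:**
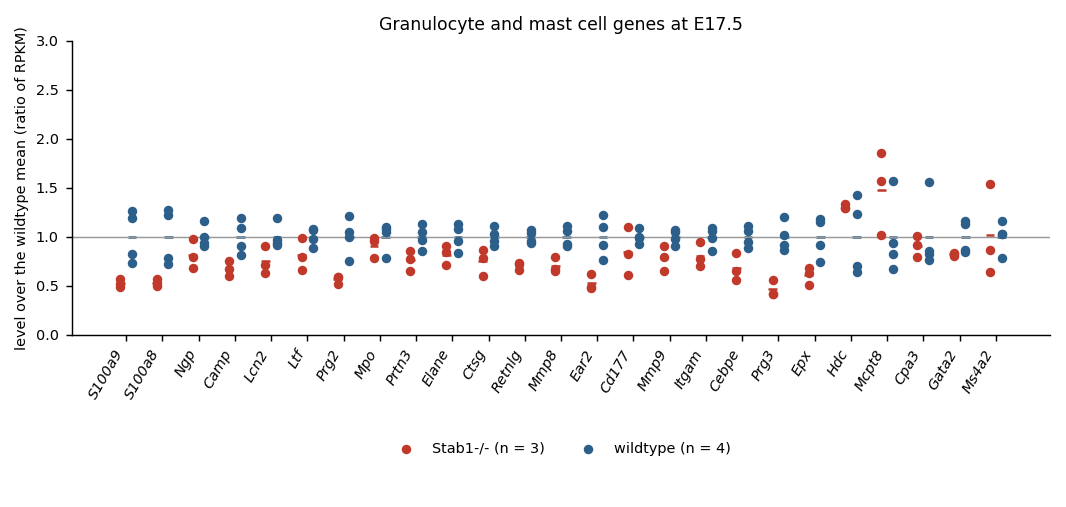
Level over the wildtype mean (ratio of RPKM, linear axis from 0) for the 25 tested granulocyte and mast cell genes in order of wildtype level, with 1 point per library, red for the 3 Stab1-/- and blue for the 4 wildtype livers, lines at the group means and a grey line at 1. The Stab1-/- points for S100a9, S100a8, Prg2, Ear2 and Prg3 lie below all wildtype points, and those for Mcpt8 and Ms4a2 do not.

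Other blood cell lists stood closer to the median of all genes, though negative log2 fold changes prevailed in them too. These were 20 of 30 erythroid, 16 of 21 B lymphoid, 15 of 22 megakaryocyte and stem cell and 16 of 21 cell cycle genes. Without overlap in the lower direction were 1, 3, 1 and 0 of them, against 5.19% of all tested genes. In the higher direction there were 0, 0, 1 and 0, against 6.1%. Of 30 tested erythroid genes none was called by edgeR or DESeq2, 1 in each direction had an unadjusted p under 0.05, and the median log2 fold change was -0.054, or 0.058 without Stab1-/- replicate 1. The lower count was 9 without Stab1-/- replicate 3 and 2 without wildtype replicate 3, and the higher count was 0 without Stab1-/- replicates 2 or 3 or wildtype replicates 1, 2 or 3. Hbb-b1, an adult beta globin gene, was at 4463, 4517 and 6369 RPKM against 5825, 5825, 5001 and 4654 RPKM. Of 21 tested B lymphoid genes none was called by either tool, 4 had an unadjusted p under 0.05, all lower. That count was 1 without Stab1-/- replicate 1 or wildtype replicate 1, 2 without Stab1-/- replicate 3 or wildtype replicate 2, and 7 without Stab1-/- replicate 2, and 1 gene was higher without Stab1-/- replicate 1. The median was -0.18, or -0.052 without Stab1-/- replicate 1. Of 22 tested megakaryocyte and stem cell genes none was called by either tool and 4 had an unadjusted p under 0.05, 3 of them lower, or 1 without Stab1-/- replicates 1 or 3. The higher count was 0 without Stab1-/- replicate 3 or wildtype replicate 2 and 2 without wildtype replicate 4, and the list had a median of -0.13. No cell cycle gene of 21 tested was called by either tool or reached an unadjusted p under 0.05, but 4 lower genes did without Stab1-/- replicate 3 and 1 without wildtype replicate 2 or 4. Mki67, a marker of dividing cells, was at 145, 152 and 205 RPKM against 154, 150.3, 166 and 212 RPKM.

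Genes of insulin-like growth factor signalling and the fasting response had positive log2 fold changes in 18 of 20 tested members. Irs2 was the 1 call by edgeR, where 0.194% of all tested genes were called higher. An unadjusted p under 0.05 in the higher direction was reached by 10 against 6.95% of all tested genes, 9 were without overlap in the higher direction against 6.1% of all, and none was lower by either measure. The median log2 fold change was 0.29, and 0.21 without both libraries with gut or pancreas transcripts, where 7 reached an unadjusted p under 0.05 in the higher direction. Igfbp1, which binds insulin-like growth factors and is induced in fasting and stress, was at 415, 268 and 769 RPKM against 264, 185, 204 and 175 RPKM (log2 fold change 1.28, adjusted p = 0.134), with Stab1-/- replicate 3 the highest. Igf2 itself, the main fetal growth factor of the family, was at 1181, 1209 and 1129 RPKM against 1068, 1030.3, 1148 and 1203 RPKM and overlapped (log2 fold change 0.14, adjusted p = 0.572). Pdk4, which spares glucose by inhibiting pyruvate dehydrogenase, and Ppargc1a, a coactivator of gluconeogenesis, were named after their values were seen. Pdk4 was at 7.29, 7.83 and 8.61 RPKM against 6.67, 6.51, 5.07 and 4.25 RPKM (log2 fold change 0.55, adjusted p = 0.222) and Ppargc1a at 3.25, 3.31 and 3.57 RPKM against 2.82, 2.83, 2.84 and 2.53 RPKM (log2 fold change 0.35, adjusted p = 0.182).

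Acute-phase genes outside the serpins gave no call by edgeR among 20 tested and 2 by DESeq2, Mt1 and Mt2, both higher. An unadjusted p under 0.05 was reached by 4 in the higher and 2 in the lower direction, or by 2 higher without Stab1-/- replicate 2 and 1 lower without Stab1-/- replicates 1 or 3 or wildtype replicate 1. The median log2 fold change was 0.17. Fgb, Fgg and Fga, the fibrinogen chains, overlapped between genotypes, as Fgb at 2854, 4179 and 2649.7 RPKM against 3336, 3149, 3402 and 2112 RPKM shows. Mt1, a metallothionein that binds zinc and copper, was at 1699, 1488 and 1979 RPKM against 974, 887, 1401 and 1054 RPKM without overlap (log2 fold change 0.73, unadjusted p = 0.000965, adjusted p = 0.111), and Mt2, a related gene named after its values were seen, at 1211, 1141 and 1491 RPKM against 621, 535, 997 and 747 RPKM (log2 fold change 0.88, unadjusted p = 0.001, adjusted p = 0.111). Among 22 tested genes of iron handling none was called by edgeR and 1 by DESeq2 (Hmox1, higher), 7 had an unadjusted p under 0.05 in the higher and 1 in the lower direction. The higher count was 4 without Stab1-/- replicates 1 or 2 or wildtype replicates 2 or 4, and the lower count was 2 without wildtype replicate 3. Of the 22 genes, 19 had positive log2 fold changes with a median of 0.12. This list did not hold Scara5, the ferritin receptor that was called higher. Hamp, the iron hormone hepcidin, varied widely at 82, 153 and 38 RPKM against 22.2, 26.6, 54.1 and 12.1 RPKM, with wildtype replicate 3 above Stab1-/- replicate 3 (log2 fold change 1.73, unadjusted p = 0.00668, adjusted p = 0.222). Bmp6, the endothelial signal that induces hepcidin, was at 0.986, 0.912 and 0.47 RPKM against 0.308, 0.397, 0.681 and 0.155 RPKM and overlapped as well (log2 fold change 1.08, unadjusted p = 0.0371, adjusted p = 0.361). Both genes were named after their values were seen.

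Markers of the cells that normally carry Clever-1 were read next. Of 30 tested genes of sinusoidal endothelium none was called by edgeR or DESeq2, 7 had an unadjusted p under 0.05 in the higher and 1 in the lower direction. The higher count was 3 without Stab1-/- replicate 1, without wildtype replicate 1 or without wildtype replicate 2, and the lower count was 2, 0 and 3 without wildtype replicates 2, 3 and 4. Of the 30 genes, 21 had positive and 9 had negative log2 fold changes. The median log2 fold change was 0.12, with summed levels of 330.4, 318 and 329.5 RPKM in the Stab1-/- and 317, 317, 319 and 337 RPKM in the wildtype livers. Lyve1, a hyaluronan receptor of sinusoids, was at 22.2, 27.6 and 26.7 RPKM against 29, 27.3, 29.6 and 29.1 RPKM (log2 fold change -0.11, adjusted p = 0.657), and Cd36, a fatty acid and scavenger receptor, at 21.5, 27.1 and 34.6 RPKM against 38.4, 39.8, 27.4 and 32 RPKM (log2 fold change -0.25, adjusted p = 0.567). Of 25 tested genes of Kupffer cells and macrophages none was called by edgeR and 3 by DESeq2 (Hmox1 and Marco higher, Lyz2 lower), 5 had an unadjusted p under 0.05 in the higher direction, or 3 without Stab1-/- replicates 2 or 3 and 8 without both libraries with gut or pancreas transcripts. In the lower direction 2 had it, or 1 without Stab1-/- replicates 2 or 3 or wildtype replicates 1 or 3. Of the 25 genes, 17 had positive and 8 had negative log2 fold changes, with a median of 0.084. Lyz2, the lysozyme shared by macrophages and neutrophils, was at 234, 266 and 254 RPKM against 440.3, 454, 323 and 314 RPKM without overlap (log2 fold change -0.55, unadjusted p = 0.00546, adjusted p = 0.205). Cd5l, a secreted macrophage protein, was at 91.2, 99 and 121 RPKM against 115, 142, 123 and 100 RPKM and overlapped (log2 fold change -0.15, adjusted p = 0.653).
Of 27 tested scavenger receptor and ligand genes, 2 were called, both lower, against 0.172% of all tested genes. These were Stab1, which is the targeted gene, and Postn. An unadjusted p under 0.05 was reached by 7 in the higher direction, or 3 without Stab1-/- replicate 1, and by 2 in the lower. Without overlap were 4 in the higher and 2 in the lower direction, against 6.1% and 5.19% of all. The median of the list was 0.056. Scara5, the ferritin receptor that was called higher, was not in this list. Marco, a scavenger receptor of macrophages, was at 67.3, 76.4 and 86.9 RPKM against 45.4, 51.6, 70.6 and 51.8 RPKM, and wildtype replicate 3 lay above Stab1-/- replicate 1 (log2 fold change 0.55, unadjusted p = 0.00455, adjusted p = 0.186). Sparc, a matrix glycoprotein that Clever-1 binds, was at 114, 83.9 and 83.8 RPKM against 86.2, 78.3, 96.6 and 83.4 RPKM (log2 fold change 0.18, adjusted p = 0.546). Among 26 tested genes of stellate cells and matrix, Postn was the 1 call, where 0.172% of all tested genes were called lower. That call ended without both libraries with gut or pancreas transcripts. The median of this list turned from 0.10 to -0.062 without Stab1-/- replicate 1.

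Hepatocyte maturation genes overlapped for the most part. None of 18 tested genes of mature hepatocytes and none of 12 of fetal hepatocytes was called by edgeR, with medians of -0.043 and 0.15. Without overlap were 3 mature genes in the higher and 1 in the lower direction, and 2 fetal genes in the higher direction. Of all tested genes, 6.1% and 5.19% were without overlap in the higher and lower direction. Cps1, the first enzyme of the urea cycle, was at 379, 326 and 285 RPKM against 165, 217, 291 and 207 RPKM (log2 fold change 0.65, unadjusted p = 0.00424, adjusted p = 0.184), and Gpc3, a glypican of fetal liver, at 394, 374 and 364 RPKM against 297, 268, 316 and 321 RPKM (log2 fold change 0.39, unadjusted p = 0.00186, adjusted p = 0.148). Each Stab1-/- liver was above each wildtype liver in both after TMM scaling. An unadjusted p under 0.05 was reached by 3 mature genes in the higher and 2 in the lower direction and by 1 fetal gene in the higher direction. With 1 library left out these counts ranged from 2 to 4, from 1 to 4 and from 1 to 3, and without Stab1-/- replicate 1 another 2 fetal genes were lower. DESeq2 called 2 mature genes and 1 fetal gene. A further list of 12 general hepatocyte genes gave no call by edgeR and 1 in each direction by DESeq2. Of these genes, 5 were without overlap in the higher and 2 in the lower direction, with a median of 0.16. Their summed level was 107977, 116122 and 105603 RPKM in the Stab1-/- and 104896, 98420, 104208 and 96205 RPKM in the wildtype livers, without overlap. Of 12 tested cytokine and chemokine genes none was called by either tool and none reached an unadjusted p under 0.05, and 2 lower genes did without Stab1-/- replicate 3. Of 17 tested genes of endothelial Wnt signals and the pericentral zone none was called by either tool, 3 in each direction had an unadjusted p under 0.05, or 1 in each without Stab1-/- replicate 1 and 1 lower without wildtype replicates 1 or 2. Their summed level was 315, 202 and 185 RPKM against 209, 203, 216 and 192 RPKM, highest in Stab1-/- replicate 1. Glul, the glutamine synthetase of pericentral hepatocytes, was at 107, 113 and 105 RPKM against 97.8, 95.5, 111 and 104 RPKM (log2 fold change 0.15, adjusted p = 0.501).

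Lysosomal genes were high in the library that carried gut transcripts. Of 23 tested, 12 had an unadjusted p under 0.05 in the higher direction, edgeR called none and DESeq2 2, and the median log2 fold change was 0.30. Without Stab1-/- replicate 1 the median was 0.13 and 2 reached that p. Lgmn, the lysosomal endopeptidase that was called higher, was not in this list. It stayed called by edgeR without Stab1-/- replicate 1 (adjusted p = 0.0145) and without both libraries with gut or pancreas transcripts (adjusted p = 0.0368). Npl, an enzyme of sialic acid breakdown, was at 58, 5.25 and 7.13 RPKM against 5.56, 6.14, 5.4 and 6.06 RPKM, and Glb1, lysosomal beta-galactosidase, at 48.7, 13 and 10.3 RPKM against 10.8, 11.4, 12.6 and 11.6 RPKM. Both were high in Stab1-/- replicate 1 alone and were named after their values were seen. Ctsd, a lysosomal protease and the member with the highest level, was at 229.7, 213 and 235 RPKM against 227, 241, 238 and 220 RPKM (log2 fold change 0.023, adjusted p = 0.928). Oat, ornithine aminotransferase, was also high in that library alone, at 143, 24.4 and 27.6 RPKM against 21.5, 20.5, 26.5 and 24.1 RPKM. Bile duct genes gave no call by either tool, 4 of 12 had an unadjusted p under 0.05 in the higher direction, or 1 without Stab1-/- replicate 1 or wildtype replicates 1 or 2, 2 without wildtype replicate 4 and 7 without Stab1-/- replicate 3. Their median was 0.35 and 0.091 without that library. Among 18 tested stress and immediate early genes edgeR called none and DESeq2 1, 3 had an unadjusted p under 0.05 in the higher and 1 in the lower direction, or 6 higher without Stab1-/- replicate 2 and 5 without wildtype replicate 4, and the median was 0.20. Mesothelial genes gave no call by either tool among 8 tested, with 1 in each direction at an unadjusted p under 0.05, and the higher count was 0 to 2 with 1 library left out.

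Whether the called genes also differed at 2 weeks was read from the 8 libraries of that age, which share no sample with the fetal ones. Of the 49 genes, 43 passed the filter at 2 weeks, 31 had the same direction, 13 were called in the same direction and 1 in the other, where 2.67% of 12716 tested genes were called. In the older mice Ifi202b had a fitted log2 fold change of 9.52 (adjusted p = 0.000322), and Gm3002 of 2.38 (adjusted p = 0.0013). 9130409I23Rik, Prune2, Scara5 and Acox2 were the other genes called higher at both ages. Stab1, Rpl26, Camk2b, C730036E19Rik, Gm4788, Tmem180 and Ddhd1 were called lower at both ages. The Rpl26 call is that of a single model, and its sum with Gm15772 overlapped between genotypes at E17.5, at 78.5% of wildtype. That sum was not examined at 2 weeks. Gda was lower at E17.5 and higher in the older mice (log2 fold change 0.83, adjusted p = 0.0116).
The difference between the ages was tested by the interaction term over all 15 libraries, which 251 of 13885 genes passed (1.81%). Of the 49 genes, which had been chosen on the fetal contrast, 13 passed. Serpina3n differed most clearly, with a log2 fold change of 2.34 at E17.5 and -0.38 at 2 weeks (difference 2.69, adjusted p = 2.77e-05). Gcnt1 had log2 fold changes of -1.59 and 0.55 (adjusted p of the difference = 0.0113), and Irs2 had 0.60 and -0.85 (adjusted p of the difference = 0.018). Stab1 was lowered less in the fetus, with -1.91 against -3.19 (difference 1.24, adjusted p = 0.031). S100a8 and S100a9 were not called by edgeR at either age, with log2 fold changes at 2 weeks of 1.67 and 1.56. DESeq2, run at E17.5 only, called both lower there. The paper lists both among its significantly upregulated genes of 2-week-old Stab1-/- livers.

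**Figure D5:**
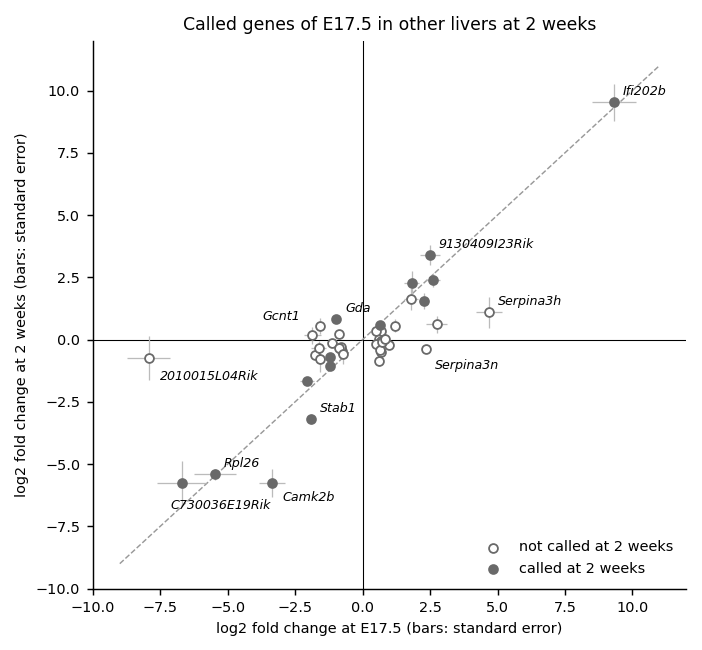
log2 fold change of Stab1-/- over wildtype at E17.5 (horizontal axis) and at 2 weeks (vertical axis) for the 43 called genes of E17.5 that were tested at both ages, with bars of 1 standard error, filled points for genes called at 2 weeks and a dashed line of equality. Ifi202b, Rpl26, Camk2b and Stab1 lie far from 0 at both ages, whereas Serpina3n is at 2.34 in the fetus and -0.38 at 2 weeks. The Rpl26 model can share reads with Gm15772.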

How the data were processed

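Liver RNA of 7 fetal libraries was analysed, with the 8 libraries of 2 weeks used for the comparison of ages only. The authors deposited, for each gene and library, the count of uniquely mapped reads, the RPKM value and the percent of the gene model that reads cover. The aligner, counting program, genome build and use of strand are not given in the sources used here, and reads of near-identical genes may be lost or shared. A dash was read as 0. The test was edgeR's (version 4.0.16, R 4.3.3) on TMM-scaled counts of genes passing filterByExpr (count 10, total 15; quasi-likelihood, 2-sided, Benjamini-Hochberg adjustment). The interaction of genotype and age was fitted over 15 libraries.

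Alternatives were DESeq2 1.42.0, other normalization, no filter, all 15 libraries, a replicate block, leaving out libraries, and leaving out genes of gut and pancreas. Leaving out 3 libraries was added after seeing the data. The fits were tested on simulated data. Replicates of 1 group differed beyond counting noise (chi-square per degree of freedom of 5.41 or more). Counting intervals are exact Clopper-Pearson intervals and, like the floor of 3 reads, cover counting error only. The members and the 32 gene lists were chosen with earlier results of these data known. By rule, the named genes were Stab1, Ifi202b, Actb, every called gene, of each list up to 4 members with the highest mean RPKM, and of the gut, smooth muscle and pancreas lists the 4 highest in any 1 library. Cdx2 and Stab2 were named as cell type markers. Named after their values were seen were Bmp6, Ear1, Ear2, Epx, Glb1, Gm15772, Hamp, Mcpt8, Ms4a2, Mt2, Npl, Pdk4, Ppargc1a, Prg2, Prg3, Serpina1a, Serpina3b, Serpina3c and Tdg. Some genes that the rule names are not reported here. Promoters and gene order are from RefSeq on GRCm38.p6.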

Additional observations from a re-analysis of the deposited data

Results flagged for a closer look

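Groups of 4 wildtype libraries were examined for 1 library far from the other 3, in 79 sets of values, and 8 had one, where chance gives about 1 in 20 (3.95). Wildtype replicate 2 stood apart in the summed pancreatic genes (5422 RPKM, next 729 RPKM), the summed growth control genes (1929 RPKM, next 2130 RPKM), Gm9855 (0.132 RPKM, next 0.0645 RPKM) and Clmn (1.99 RPKM, next 2.05 RPKM). Wildtype replicate 1 stood apart in the summed skeletal muscle genes (149 RPKM, next 15.7 RPKM). Wildtype replicate 4 stood apart in the sums of mature hepatocyte genes (1645 RPKM, next 2089 RPKM), of sinusoidal endothelium (337 RPKM, next 319 RPKM) and of kidney and adrenal genes (44.4 RPKM, next 110.0 RPKM).

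The genotype effect differed between E17.5 and 2 weeks by the interaction term for 13 called genes. The difference in log2 fold change, E17.5 minus 2 weeks, was 2.69 for Serpina3n, 1.42 for Irs2, 1.24 for Stab1, 1.14 for Cyp2b9, 1.11 for Erbb3, 1.02 for Rbm47, 0.80 for Cnksr3 and 0.71 for Lgmn. It was -2.17 for Gcnt1, -1.84 for Gda, -1.18 for Fam129a, -1.13 for Pnp and -1.02 for Dusp12, and the adjusted p-values of all 13 ran from 2.77e-05 for Serpina3n to 0.0453 for Lgmn.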

How the results depend on the processing

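With DESeq2, 127 genes were called higher and 103 lower, in place of 26 and 23 with edgeR, and all 49 were among them. With the replicate number as a block, 10 were higher and 13 lower, and 16 of the 49 were called. Whether the replicate numbers pair the libraries is not known. Libraries of 1 number, each centred on its own group, correlated across genes at 0.0069, -0.10 and -0.21. These values cannot settle it, since the groups are small and single libraries carry transcripts of other organs. Leaving out 1 library at a time gave 15 to 23 higher and 12 to 24 lower genes. Without both libraries with gut or pancreas transcripts, 12 genes were lower, and without these and the library with muscle transcripts 15 were higher and 13 lower. Other normalization, no filter, all 15 libraries in one fit, and leaving out the genes of gut and pancreas gave counts within 1.5 times, and Stab1 was called in every fit. Like counts did not mean the same genes, since 14 of the 49 calls ended in the fit of all 15 libraries, among them Serpina3h (adjusted p = 0.0645), Serpina11 (0.0657), 2010015L04Rik (0.095) and Clmn (0.284), and 3 ended with no filter. A gene that missed the threshold was not shown to be equal between genotypes.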
